A study of Mus musculus with 3 samples.

Results

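The cells described here are a class of fibro-adipogenic progenitors (FAPs) of the mouse diaphragm in which the genes *Fmod*, *Sfrp2*, *Tnmd* and *Thbs2* led over 6 other marker sets. They were chosen by their own measured expression. A barcode was taken as a FAP when it held at least 1 UMI of *Pdgfra* and at least 3 of *Dcn*, and none of *Ptprc*, *Pecam1* or *Pax7*, and a FAP was a member of the class when the mean standardized level of these 4 genes exceeded that of each other set of 4 genes. This rule kept 702 of 5808 FAPs, among 12275 barcodes in 3 libraries. Because the rule and the clusters of these cells use the same counts, every difference between members and other FAPs is a description and carries no test.

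The libraries are single-cell RNA-Seq of cells digested from costal diaphragm without its central tendon and rib attachments, 1 library for each of 3 groups of male mice. WT CD were C57BL/6J mice on a control diet, WT HFD were C57BL/6J mice on a high-fat diet with 45% of its energy from lipid, and KO HFD were B6.129S2-Thbs1tm1Hyn/J mice, which lack *Thbs1* in the whole body, on the same high-fat diet. Diets began at 2 months of age and lasted 6 months, and dead cells were removed by DAPI before capture. Cells of 2 mice were pooled in each library with no label for the mouse, so each group is 1 sample, no difference between libraries has a replicate check, and no p-value is given. A KO library on the control diet was not analysed here, so the HFD is shared by both genotypes compared.

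FAPs are the stromal cells that lie between muscle fibers, make most of the interstitial matrix, and send signals that muscle stem cells need for repair. *Fmod* encodes fibromodulin, a small leucine-rich proteoglycan that binds collagen fibrils. *Tnmd* encodes tenomodulin, a membrane glycoprotein best known from tendon, where the transcription factor scleraxis (*Scx*) marks the tendon lineage. *Sfrp2* encodes a secreted protein that binds Wnt ligands, and *Thbs2* encodes thrombospondin-2, a matricellular relative of the thrombospondin-1 deleted in the KO mice.

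The stretches just upstream of *Fmod* and *Tnmd* are shown because both genes are tendon genes found here in cells of which few held a UMI of *Scx*, a factor that binds E-boxes. Each is the 250 bases before the RefSeq transcript start on the gene's strand (GRCm38.p6), at chr1:134037004-134037253 on the plus strand for *Fmod* and chrX:133850758-133851007 on the plus strand for *Tnmd*, 5′ to 3′, with any E-box (CANNTG, the same on both strands) in capitals.
Fmod: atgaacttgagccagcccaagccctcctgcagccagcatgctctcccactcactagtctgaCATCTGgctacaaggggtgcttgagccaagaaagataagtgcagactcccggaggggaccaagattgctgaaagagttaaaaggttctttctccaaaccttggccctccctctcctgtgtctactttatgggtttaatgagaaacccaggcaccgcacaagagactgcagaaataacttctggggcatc
Tnmd: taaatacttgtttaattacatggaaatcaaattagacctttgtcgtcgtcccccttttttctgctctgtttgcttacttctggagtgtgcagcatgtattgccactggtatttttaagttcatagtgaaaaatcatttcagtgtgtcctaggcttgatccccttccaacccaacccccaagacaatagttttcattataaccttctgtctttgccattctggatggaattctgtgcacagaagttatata
The *Fmod* stretch held 1 E-box, CATCTG, whose last base lies 184 bases before the start, and the *Tnmd* stretch held none. Of the other rule genes, the matching stretch held 1 E-box for *Thbs2* and 0 for *Sfrp2*. An E-box was found in 66.2% of 32851 RefSeq mouse promoters of that length, so a match is common, and the absence of these letters from a short window says nothing of the factor.

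WT CD gave 241 members of 1930 FAPs, WT HFD 184 of 1779 and KO HFD 277 of 2099. These are 12.5% (exact Clopper-Pearson 95% interval 11.04 to 14.04), 10.3% (8.97 to 11.9) and 13.2% (11.8 to 14.7) of the FAPs of each library. The intervals cover counting error only. The levels of the rule genes themselves differed between libraries, as given with each gene, so no order of abundance is read from these shares. With all FAPs thinned to 3000 UMIs the shares were 13.4%, 10.7% and 13.4%.

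Members held somewhat fewer UMIs per cell than the other FAPs. Their median was 7745 UMIs in WT CD, 8210.5 in WT HFD and 7545 in KO HFD, against 8719, 9333 and 8603.5 in the other FAPs. Their summed counts were 1981245, 1580726 and 2221719 UMIs. Levels are given in CPM, the usual scaling of a gene's UMIs by all UMIs of the cells summed, with exact Poisson 95% intervals. Scrublet called 0 members as doublets. The libraries shared 7, 7 and 2 barcode sequences pairwise, and 0 of these belonged to members in both libraries.

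*Thbs1*, the gene deleted in KO mice, was counted in every library. In members it stood at 117 CPM in WT CD, 86.7 in WT HFD and 157 in KO HFD, and in the other FAPs at 206, 254 and 239.9 CPM. The counts come from the 3′ end of transcripts, and the position of the deletion relative to that end is not given in the sources used here, so they check nothing about the genotype. Members had less *Thbs1* than the other FAPs in all 3 libraries.

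Most members carried the class signature through several genes at once. Of the 702, 82 held UMIs of 1 rule gene, 275 of 2, 238 of 3 and 107 of all 4. *Thbs2* was detected in 82.5% of members, *Sfrp2* in 74.6%, *Tnmd* in 55.3% and *Fmod* in 40.3%. The commonest combination was *Sfrp2* with *Thbs2* alone, in 137 members, followed by *Sfrp2*, *Tnmd* and *Thbs2* in 112. *Fmod* came mostly together with *Sfrp2*, in 238 of its 283 cells, and with *Tnmd* in 148. The class is a range of cells that share parts of the signature.

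The levels of the rule genes restate the rule and are given as a description. *Fmod* reached 159 CPM (142 to 178) in WT CD members, 334 (306 to 364) in WT HFD and 197 (179 to 217) in KO HFD, against 1.16, 1.49 and 1.52 CPM in the other FAPs of those libraries. *Tnmd* stood at 215, 313 and 293 CPM against 12.04, 14.9 and 16.4. *Sfrp2* stood at 604, 717 and 857 CPM against 36.9, 23.9 and 20.3. *Thbs2* stood at 659, 533 and 621 CPM in members and at 95.8, 104 and 78.5 CPM in the others, where 38.0% of cells held at least 1 UMI of it. In B cells, which should lack all 4 genes, 0 of 501 cells held *Fmod* or *Tnmd*, which allows a share of up to 0.599%, and 1 cell held *Sfrp2* and 3 held *Thbs2*, where B cells had a median depth of 8608 UMIs and members one of 7831. Thinned to 3000 UMIs, which leaves out 7 members and 72 other FAPs, *Fmod* was found in 28.9% of members and 0.437% of the other FAPs.

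**Figure D1:**
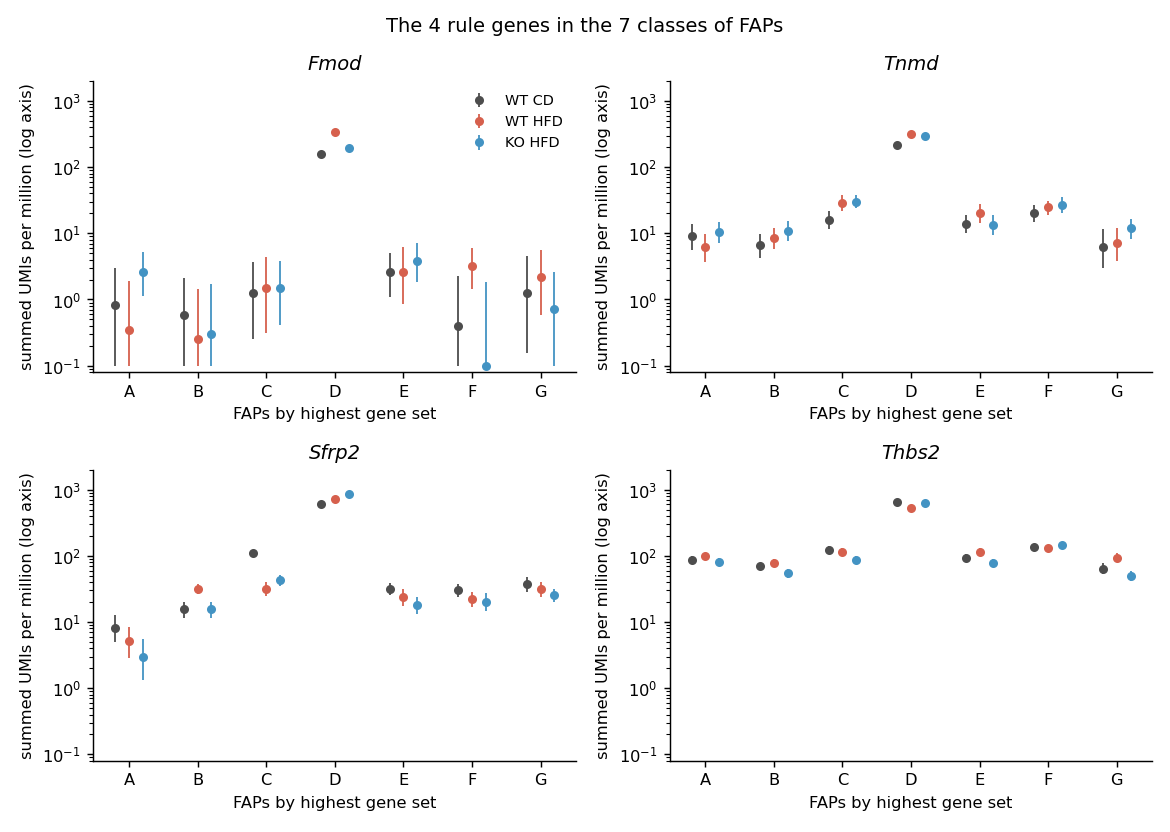
Level of the 4 rule genes in FAPs grouped by the gene set with the highest score (A to G; D is the class described), in CPM of summed UMIs on a log axis, with 1 point per library and exact Poisson 95% intervals (values and bounds under 0.1 are drawn at 0.1). The 4 genes chose class D, so its high levels of them restate the rule, and *Thbs2* also stood at 95.8, 104 and 78.5 CPM over all the other FAPs.

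The edge of the class is gradual. The score of members exceeded the next set by a median of 0.749, but 55 members (7.83%) and 107 other FAPs lay within 0.1 of the boundary. The member nearest to it scored 0.194 for its own set and 0.000419 less for set F, and the nearest cell outside scored -0.115 for it and -0.113 for its leading set, E. The runner-up was most often set F (*Dio2*, *Pthlh*, *Col8a1* and *Aspn*), in 234 members, then E (*Gdf10*, *Rbp4*, *Penk* and *Apod*) in 152 and C (*Sfrp4*, *Spon2*, *Slc6a2* and *Vit*) in 150. A median of 2 genes of set F was detected in members, of 1 gene in sets A, B, C and E, and of 0 in set G.

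Most members also fell together when the rule genes were left out. In a k-means division of all FAPs into 7 clusters with the 28 rule genes left out, 543 of the 702 members (77.4%) fell in 1 cluster of 911 cells, of which 59.6% were members. With 5 clusters 553 members fell in 1 cluster, and with 10 clusters 451 did. Over 5558 genes, members were most like the FAPs of set C (Pearson r of log2 CPM 0.962) and set E (0.961) and least like those of set B (0.898), the *Dpp4*-led set. These correlations are across genes of the same libraries and are descriptive.

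Outside the 28 rule genes and those of the gate, 102 of 5558 genes tested (1.84%) were at least 2-fold higher in members in each of the 3 libraries, and 83 (1.49%) at least 2-fold lower. The 25 furthest above, by their weakest library, are described first. A gene could pass the minimum of 20 CPM in each library through members alone or through the other FAPs alone, and 56 of the 102 did so through members only and 51 of the 83 through the other FAPs only. Such genes are low by that measure on the other side, so the counts describe the filter as well as the cells. Of the 25 only *Slit2*, *Fgl2*, *Mdk*, *Col12a1*, *Avpr1a*, *Cpxm2*, *Vegfc* and *Pdgfrl* reached the minimum in the other FAPs too.

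*Kdr*, which encodes the receptor for VEGF-A and is a familiar endothelial gene, was the third of them. It stood at 64.6, 77.8 and 83.3 CPM in WT CD, WT HFD and KO HFD members and at 8.18, 5.44 and 3.84 CPM in the other FAPs, a log2 ratio of 2.98 to 4.44. It was found in 33.8% of members and 4.09% of other FAPs, against 1.20% of B cells and 1.81% of macrophages. Of 6 endothelial markers, *Pecam1* was 0 in members by the gate and *Cdh5* held no UMI, which allows UMIs in up to 0.427% of members. The summed level of the 6, of which *Kdr* had most UMIs, was 71.7, 98.1 and 99.9 CPM, against 13.3, 11.3 and 9.26 in the other FAPs. *Flt1*, another VEGF receptor gene of that list, was also higher in members, at 11.8 CPM in 7.41% of cells against 3.40 CPM in 2.19%. *Tek*, an endothelial receptor gene outside the list, was lower, at 5.55, 4.43 and 7.20 CPM against 34.2, 41.9 and 38.9. *Vegfc*, a ligand for the lymphatic VEGF receptor, stood at 97.9, 115 and 127 CPM in members against 29.7, 31.8 and 32.2.

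*Slit2*, a guidance ligand for Robo receptors, was found in 50.9% of members and stood at 115, 135 and 121 CPM against 27.0, 26.3 and 20.6 in the other FAPs. *Mdk*, a heparin-binding growth factor, stood at 144, 139.8 and 149 CPM against 30.3, 28 and 39.5. *Ecrg4*, a secreted peptide precursor, stood at 63.6, 82.2 and 58.1 CPM against 3.99, 5.19 and 2.31. It was found in 18.2% of members and overlaps *Gm29155* on the other strand, and as the strand setting of the counting is not stated, reads of the pair cannot be told apart. The same holds for *Gm26771*, the leading gene by ratio, which overlaps *Sfrp2* on the other strand and stood at 41.4, 33.5 and 35.1 CPM in members.

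*Avpr1a*, which encodes a vasopressin receptor, stood at 115, 137 and 113 CPM against 32.6, 24.0 and 21.6. *Cdh11*, the cadherin of mesenchymal cells, stood at 93.4, 84.8 and 72.0 CPM against 17.3, 21.5 and 18.9. *Cldn10*, a claudin, stood at 101, 70.9 and 65.7 CPM against 17.5, 13.5 and 11.3. These 3 genes were each at least 3-fold apart in each library. The other leading genes were *Fam180a*, *Cadm1*, *Plscr2*, *1810010H24Rik*, *Col8a2*, *Pdlim3*, *Stard10*, *Fgl2*, *Adgrl2*, *Gria3*, *Cpe*, *Col12a1*, *6330403K07Rik*, *Cacna1g*, *Cpxm2* and *Pdgfrl*. Over the 3 libraries *Pdgfrl* stood at 521 CPM in members and at 341 in the FAPs of set F, under 2-fold apart.

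**Figure D2:**
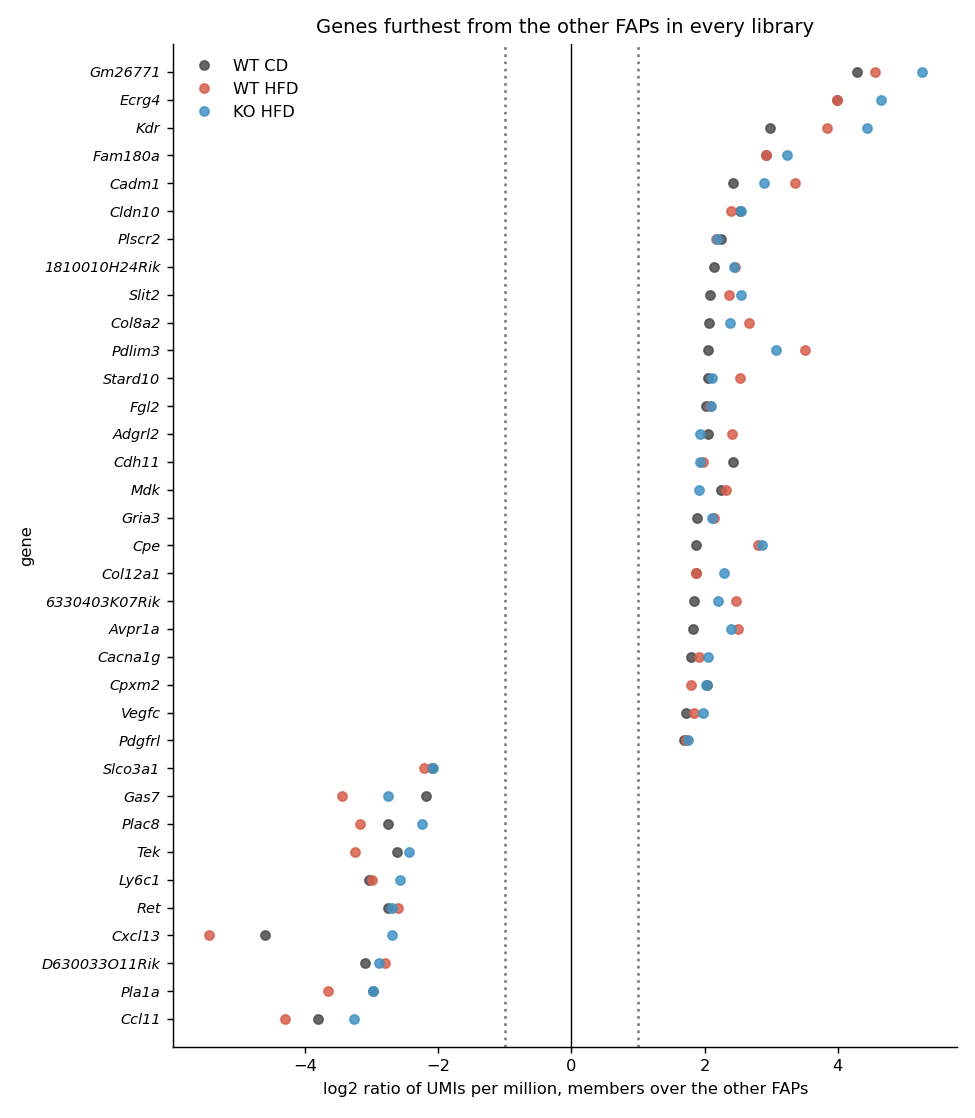
Log2 ratio of CPM in members over the other FAPs, 1 point per library, for the 25 genes furthest above and the 10 furthest below (dotted lines mark 2-fold). The points of a gene lie on the same side of 0 in all 3 libraries by the way the genes were picked, and *Kdr*, *Pdlim3* and *Cxcl13* spread most between libraries.

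Of the Wnt list, *Sfrp1*, *Dkk2*, *Dkk3* and *Axin2* were at least 2-fold higher in members in each library. All but *Sfrp1* reached the minimum of 20 CPM in each library in members only, so no count over the list is given. *Sfrp1*, a relative of *Sfrp2*, stood at 442, 495 and 615 CPM against 184, 186 and 213. *Dkk2* and *Dkk3*, of the Dickkopf family of Wnt antagonists, stood at 100.4, 92.4 and 79.7 CPM and at 70.2, 56.9 and 37.8 CPM, against 27.6, 33.4 and 16.4 and against 22.7, 13.5 and 15.0. *Axin2*, a target gene of canonical Wnt signaling, stood at 35.8, 35.4 and 29.3 CPM against 15.3, 10.9 and 10.7. *Tcf7l2*, a transcription factor of the same pathway and a known FAP marker, was found in 76.2% of members and stood at 292, 266 and 277 CPM against 108, 99.9 and 105. The list was chosen with the Wnt gene *Sfrp2* already in the rule.

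*Thbs4*, the thrombospondin of tendon and muscle attachments, stood at 2303, 2642 and 1962 CPM against 727, 762 and 591, and was found in 89.2% of members. It was almost as high in the FAPs of set F, at 1996 CPM over the 3 libraries. *Col12a1*, a collagen that decorates fibril surfaces, stood at 334, 294 and 289 CPM against 91.1, 80.5 and 58.9. Over the 3 libraries *Col12a1* stood at 305 CPM in members and 159 in the FAPs of set F, under 2-fold apart. Of 9 fibrillar and fibril-associated collagens tested, *Col12a1* alone was past 2-fold in each library, where 1.84% of all genes tested were higher. The median log2 ratio of the 9 was 0.74. *Col1a1*, a main fibrillar collagen, stood at 1833, 1716 and 1705 CPM against 855, 979.5 and 950.4.

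Of 16 elastic fiber and microfibril genes tested, 3 were higher and 1 lower, with a median log2 ratio of 0.14. Over all genes tested, 1.84% were at least 2-fold higher in members in each library and 1.49% at least 2-fold lower. *Eln* (tropoelastin) stood at 524, 498 and 569 CPM against 198, 186 and 187, and the microfibril genes *Mfap2* and *Mfap4* were also at least 2-fold higher, while *Efemp1* stood at 91.9, 60.1 and 68.0 CPM against 293, 283 and 285. *Lox*, which cross-links collagen and elastin, stood at 370.5, 447 and 508 CPM against 115, 134 and 139 and was the 1 gene of 19 tested in the collagen-processing list past 2-fold. Among 14 matricellular genes tested, *Thbs4*, *Spock2* and *Ccn5* were higher and *Ccn3* lower, beside the shares of 1.84% and 1.49% over all genes. *Omd*, a small leucine-rich proteoglycan like *Fmod*, was the 1 of 7 tested past 2-fold, at 101, 67.1 and 83.3 CPM against 34.2, 29.4 and 28.6. Of 14 matrix receptors tested, *Itga1*, *Itgbl1* and *Sdc1* were higher and 0 lower, where 1.84% of all genes were higher. *Sdc1* passed the minimum through members only.

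Of 17 TGF-β genes and 8 BMP and GDF genes tested, 0 passed 2-fold in each library in either direction, which is near the shares of 1.84% and 1.49% over all genes and says nothing particular of these lists. *Igfbp3*, which binds IGFs, stood at 388, 374 and 385 CPM in members. In the other FAPs it was 129 CPM in WT CD but 40.2 and 40.4 in WT HFD and KO HFD, so the ratio was 1.59 on the log2 scale in WT CD and 3.22 and 3.25 in the HFD libraries. *Igfbp5* went the other way, at 257, 323 and 113 CPM against 602, 732 and 534.

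Cytokine and chemokine transcripts were less abundant in members. The summed level of the 16 genes of that list outside the rule, which leaves out *Cxcl14*, was 894, 736 and 1077 CPM in members, with most UMIs in *Cxcl1*, against 1954, 2062 and 2327 in the other FAPs. *Ccl2*, *Ccl7*, *Ccl11*, *Cxcl12* and *Cxcl13* were at least 2-fold lower in each library, but *Ccl7*, *Ccl11* and *Cxcl13* passed the minimum through the other FAPs only, so no count over the list is given. *Ccl11*, the eosinophil attractant eotaxin, stood at 27.8, 19.6 and 41.9 CPM in members against 390.1, 385 and 401, and was found in 5.27% of members against 52.8% of other FAPs. *Ccl2*, a monocyte attractant, stood at 30.8, 23.4 and 73.4 CPM against 225, 309 and 289. The complement gene *C3* stood at 748, 832 and 1141 CPM against 1899, 1967 and 2314, and *Ly6a* (Sca-1), a surface marker used to sort FAPs, at 216, 318 and 320.5 CPM against 869, 1267 and 1047. *Fn1* (fibronectin) stood at 252, 373 and 331 CPM against 837, 1128 and 1132. The other leading low genes were *Pla1a*, *D630033O11Rik*, *Ret*, *Ly6c1*, *Plac8*, *Gas7* and *Slco3a1*. Some were low in other sets too, over the 3 libraries. *Cxcl13* stood at 6.64 CPM in set A and 0.271 in set F, against 3.98 in members and 392 in set G. *Plac8* stood at 12.9 and 12.5 CPM in sets A and F, against 10.5 in members. *Ret* and *D630033O11Rik* stood at 14.0 and 12.4 CPM in set C, against 6.92 and 6.57 in members and 93.9 and 80.8 in set A.

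Most FAP markers differed less. Of 6 tested outside the rule and the gate, *Ly6a* alone was past 2-fold, the median log2 ratio was -0.01, and the proteoglycan gene *Lum* stood at 2003, 1814 and 2033 CPM against 1390, 1465 and 1520. *Pparg*, the adipogenic regulator, had 2 UMIs in all members. Of 8 adipogenic genes tested, 0 passed 2-fold either way. For both lists, the shares over all genes tested were 1.84% higher and 1.49% lower.

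Members held markers of tendon at lower levels than tendon cells. As a reference, 25 cells outside the FAP definition were picked for UMIs of at least 3 of 7 tendon genes (*Scx*, *Mkx*, *Chad*, *Comp*, *Kera*, *Col11a1* and *Cilp2*), with 188576 UMIs in all, so their high levels of these 7 genes were fixed by the choice. These tendon cells had 5335 CPM of *Fmod* and 1273 of *Tnmd*, against 222 and 272 in members. *Scx* stood at 684 CPM in tendon cells. In members it had 0 UMIs in WT CD, 20 in WT HFD and 1 in KO HFD, in 6 cells of 702, with 10 and 6 of the UMIs in 2 cells of WT HFD. *Chad* stood at 2079 and *Kera* at 864 CPM in tendon cells, and at 4.15 and 7.26 in members. *Mkx*, a transcription factor of tendon, was above the other FAPs in members, at 9.16 CPM in 6.98% of cells against 2.05 CPM in 1.74%, with 127 CPM in tendon cells. *Col11a1* stood at 9.68 CPM in 5.70% of members against 1.08 CPM in 0.881% of the other FAPs, with 323 CPM in tendon cells. Both were higher in members in each of the 3 libraries. *Comp* was not, at 24.2 CPM in 2.42% of members against 22.4 CPM in 3.76% of the other FAPs. Among the 7 genes that picked the tendon cells, *Comp* had most UMIs in members. *Ecrg4* stood at 769 CPM in tendon cells. Conversely *Kdr*, *Cldn10* and *Slit2* had 0 UMIs in the tendon cells, which allows UMIs in up to 12% of them.

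The level of 8 of the tendon markers in members was uneven across libraries. The summed level of 8 tendon markers outside the rule (*Scx*, *Mkx*, *Comp*, *Chad*, *Kera*, *Col11a1*, *Cilp2* and *Ptx4*; *Comp* had most UMIs) was 28.3 CPM (21.4 to 36.7) in WT CD, 128 (111 to 147) in WT HFD and 39.2 (31.4 to 48.3) in KO HFD, against 22.4, 26.3 and 31.2 in the other FAPs. *Scx*, *Cilp2* and *Ptx4* were at 0 in WT CD members and *Chad* and *Kera* at 0 in KO HFD members. Much of the sum in members came from few cells. Over the 3 libraries the 140 UMIs of *Comp* were in 17 members, the 42 of *Kera* in 4 and the 24 of *Chad* in 4. The 53 of *Mkx* and 56 of *Col11a1* were spread over 49 and 40 members. The Poisson intervals of the sum do not cover this spread between cells. All 10 listed tenocyte markers outside the rule, which include *Thbs4* and *Egr1*, summed to 5574, 5512 and 5735 CPM in members, with most UMIs in *Egr1*. In the other FAPs that sum was 3418, 3083 and 3495 CPM. Members with UMIs of 2 or more of 7 tendon genes numbered 2, 8 and 5. Members with 2 or more mesothelial markers numbered 4, 3 and 1, and the summed level of 6 mesothelial markers, of which *Wt1* had most UMIs, was 204, 169.5 and 109.8 CPM, against 73.1, 70.0 and 68.0 in the other FAPs. Mesothelial cells also held *Fmod* (275 CPM), *Kdr* (95.8 CPM), *Cldn10* (500.2 CPM, in 94.2% of cells), *Ecrg4* (98.4 CPM, in 45.3%) and *Fam180a* (53.7 CPM, in 38.7%), though 0 of 137 held *Tnmd*, which allows up to 2.19%. Without the 23 members with either set of markers, the smallest log2 ratio over the 3 libraries was 3.02 for *Kdr*, 2.35 for *Cldn10*, 3.60 for *Ecrg4* and 2.90 for *Fam180a*.

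**Figure D3:**
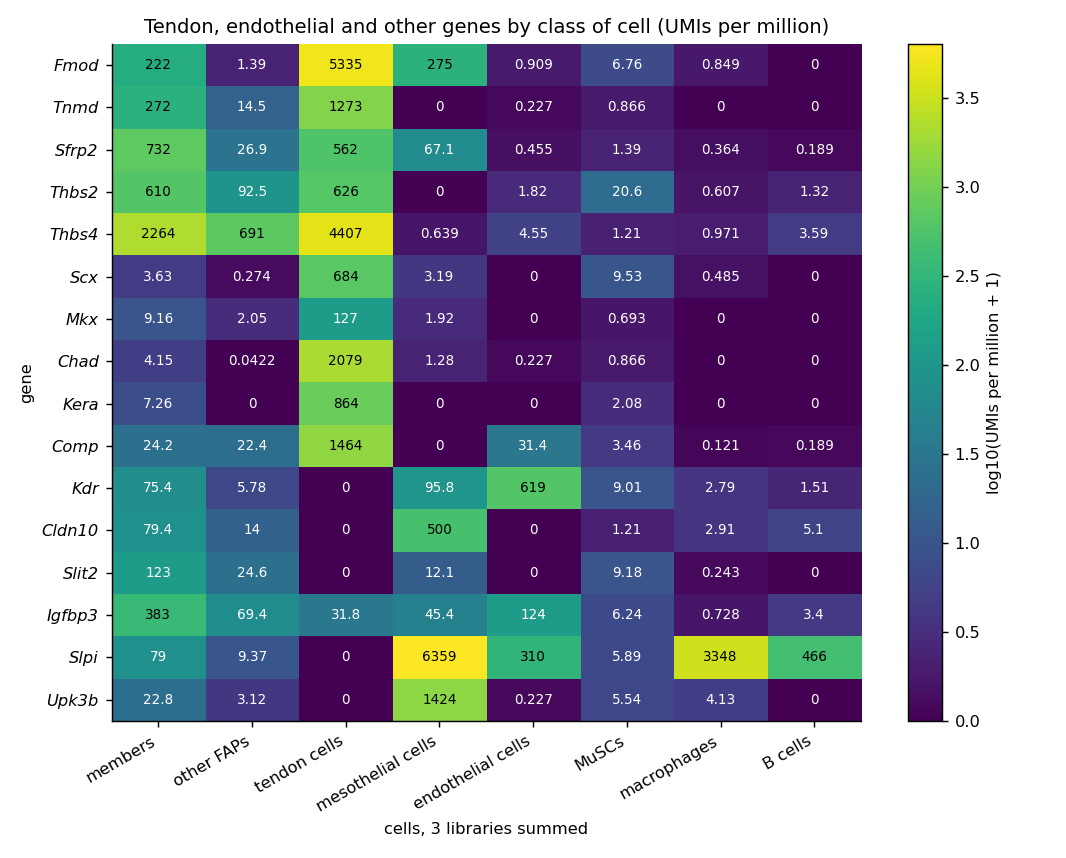
Levels of 16 genes (rows) in 8 classes of cells (columns), in CPM with the 3 libraries summed. The printed numbers are the levels and the color is log10 of the level plus 1. Members share *Fmod*, *Tnmd*, *Sfrp2*, *Thbs2* and *Thbs4* with the tendon cells, which were picked for genes that include *Scx*, *Chad* and *Kera*, and hold *Kdr*, *Cldn10* and *Slit2* where tendon cells have 0.

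Over the 21 sums of 7 FAP sets by 3 libraries, the genes whose log2 level ran closest to the mean of the 4 rule genes were *Svil* (Pearson r 0.956), *Ntrk2* (0.943), *Bmpr1a* (0.939), *Gm26771* (0.931) and *Kdr* (0.924). *Svil* encodes supervillin, an actin-binding protein, *Ntrk2* the neurotrophin receptor TrkB and *Bmpr1a* a BMP receptor. The 21 sums share libraries and the rule genes chose the sets, so the values describe the pattern only.

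The diet comparison asked how members of WT HFD differed from those of WT CD. Of 3014 genes with at least 50 CPM in 1 of these libraries, 56 (1.86%) were at least 1.5-fold higher in WT HFD and 39 (1.29%) lower, and the median log2 ratio over all of them was 0.07. Of these, 31 of the 56 and 18 of the 39 reached 50 CPM in 1 library only. With TMM scaling the counts were 35 higher and 48 lower, so the balance of directions depends on the scaling. In the other FAPs of the same libraries 54 of the 56 and 34 of the 39 had the same sign, and 8 and 11 of them also passed 1.5-fold, where over 2883 genes 15 (0.520%) were higher and 24 (0.832%) lower. Members with 3 or 4 rule genes were 42.3% (36.0 to 48.8) of those in WT CD and 53.8% (46.3 to 61.2) in WT HFD. The part of this make-up in the ratios was not tested.

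*Prg4* (lubricin) went from 249 CPM (227 to 272) to 566 (529 to 604) and stood at 249 and 385 CPM in the other FAPs. It overlaps *Tpr* on the other strand, which had a log2 ratio of 0.60 in members, and reads of the pair cannot be told apart. Of the *Prg4* UMIs, 139 were in 1 WT HFD member. Without the members with tendon or mesothelial markers the log2 ratio of *Prg4* was 0.88 in place of 1.18. *Adamts5*, an aggrecan-cleaving protease, went from 165 to 303 CPM, and from 327 to 506 in the other FAPs. *Sema3d*, a semaphorin, went from 45.9 to 82.2 CPM, against 24.6 and 27.6 in the other FAPs. Of 14 matricellular genes tested, 0 passed 1.5-fold, where 1.86% of all genes were higher and 1.29% lower. Of 10 small leucine-rich proteoglycan genes, *Fmod* was higher and *Omd* lower, at 101 CPM in WT CD and 67.1 in WT HFD, with a list median of 0.01 on the log2 scale. *Fmod* had a log2 ratio of 1.07, and 0.91 without the members with tendon or mesothelial markers, but its level helped to choose the members, so the value is a description only.

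*Angptl4*, a fatty acid responsive inhibitor of lipoprotein lipase, had the largest log2 ratio among the named genes found in more than a few cells, 26 WT CD and 56 WT HFD members. It stood at 14.6 CPM (9.80 to 21.02) in WT CD and 53.1 (42.4 to 65.8) in WT HFD, a log2 ratio of 1.86, and at 14.2 and 56.8 CPM in the other FAPs, a log2 ratio of 2.005. It was 42.8 CPM in KO HFD members. *Slpi* had the largest ratio of the named genes, 33.3 to 244 CPM, but its UMIs came from 1 WT CD member and 3 WT HFD members, 1 of which held 238, and it stood at 6359 CPM in mesothelial cells. Without members with tendon or mesothelial markers *Slpi* was at 0 CPM in both libraries. The other named genes on this side were *Tmod2*, *Spats2l*, *Scara3*, *Dclk1*, *Ide* and *Flrt2*. With FAPs thinned to 3000 UMIs the log2 ratio of *Tmod2* was 0.52 and that of *Spats2l* 0.30, both under 1.5-fold. *Spats2l* was also under it, at 0.46, with *Thbs2* left out of the rule and at 0.54 when only members with 2 or more rule genes and a margin of 0.25 were kept.

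On the low side stood *Il33* and some genes of the sterol synthesis, heat shock and immediate early lists. The summed level of all 21 sterol synthesis genes listed was 899 CPM in WT CD, 531 in WT HFD and 564 in KO HFD members, with most UMIs in *Scd2*, and 784, 512 and 521 CPM in the other FAPs. *Fdps*, *Insig1*, *Scd2* and *Srebf2* were at least 1.5-fold lower, of which only *Scd2* reached 50 CPM in both libraries. *Scd2*, a fatty acid desaturase, went from 182 to 96.8 CPM and was 103 in KO HFD, and *Fdps*, a mevalonate pathway enzyme, from 73.7 to 36.7 CPM and 32.9 in KO HFD. Both were also lower in the other FAPs, with log2 ratios of -0.78 and -0.92. Of 15 heat shock chaperones tested, *Hspa1a*, *Hspb1* and *Dnajb1* were lower and 0 higher (median -0.36), where 1.29% of all genes were lower. Of 21 immediate early genes tested, *Junb*, *Egr3* and *Nr4a2* were lower, *Egr3* reaching 50 CPM in WT CD only.

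*Il33*, an alarmin that FAPs make for regulatory T cells, went from 143 CPM (127 to 160) in WT CD to 64.5 (52.6 to 78.3) in WT HFD and stood at 59.0 in KO HFD. In the other FAPs it was 140.2 and 126 CPM, a log2 ratio of -0.15 beside -1.15 in members. *Il33* was detected in 101 of the 241 WT CD members and 54 of the 184 WT HFD members. *Sfrp4*, a secreted Wnt modulator, went from 199 to 111 CPM in members and from 149 to 172 in the other FAPs, but it is a gene of set C, so the rule bears on its level. Whether members and other FAPs differ in these ratios beyond the spread between mice was not tested. *Trf*, *Plk2*, *Zfp869*, *Gpx3* and *Irgm1* were the other named genes on this side. With thinning the log2 ratio was -0.40 for *Trf* and -0.55 for *Gpx3*, under 1.5-fold.

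**Figure D4:**
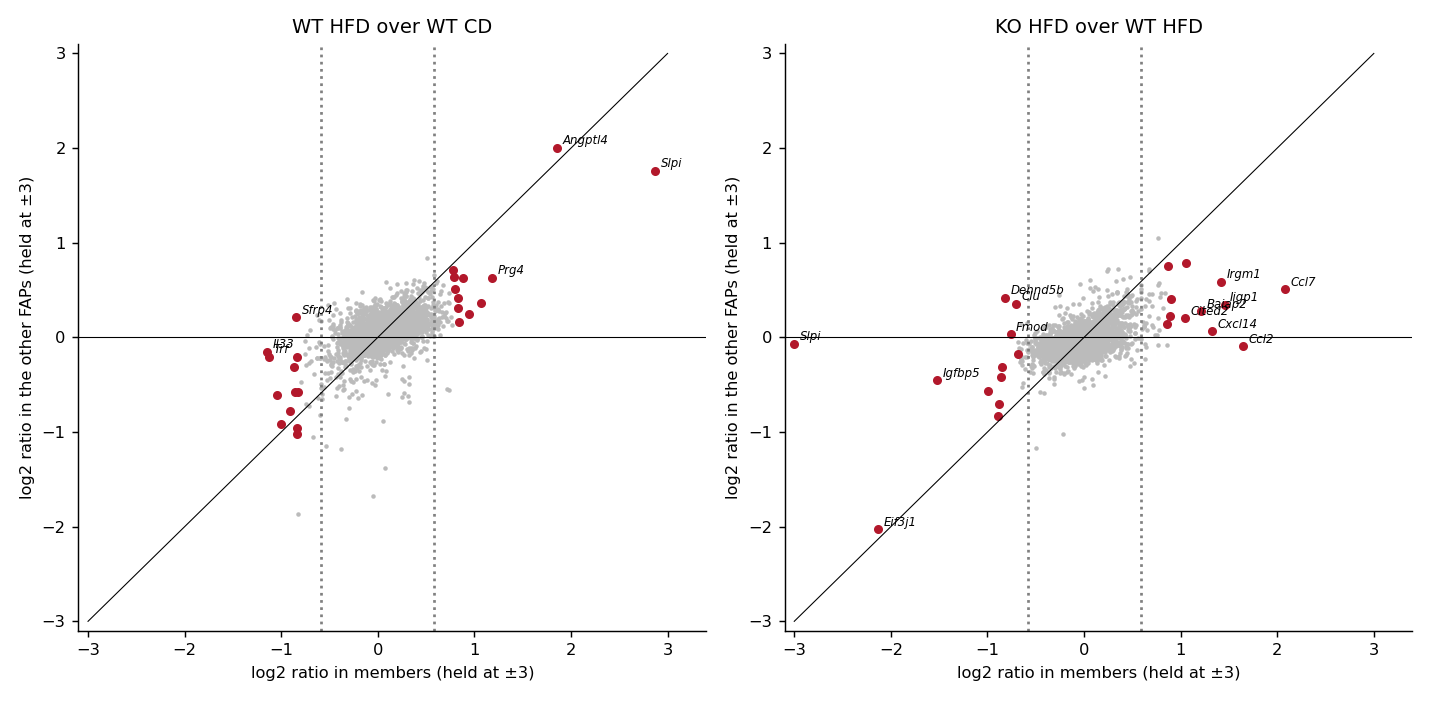
Log2 ratio in members (x) against the other FAPs (y) for genes with at least 50 CPM in members of 1 library, for WT HFD over WT CD and KO HFD over WT HFD, with the named genes in red, those far from the rest labeled, and values held at ±3. *Angptl4* and *Eif3j1* lie near the diagonal, while *Il33* and *Ccl2* lie toward the horizontal line, where the other FAPs differed little.

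The genotype comparison asked how members of KO HFD differed from those of WT HFD, and it shares the WT HFD library with the diet comparison. Of 3055 genes tested, 52 (1.70%) were at least 1.5-fold higher in KO HFD and 33 (1.08%) lower, with a median log2 ratio of -0.03. Of these, 24 of the 52 and 20 of the 33 reached 50 CPM in 1 library only. In the other FAPs 45 of the 52 and 28 of the 33 had the same sign, and 5 and 3 of them also passed 1.5-fold, where over 2897 genes 14 (0.483%) were higher and 5 (0.173%) lower. The shares of members with 3 or 4 rule genes were 53.8% in WT HFD and 52.0% in KO HFD, and 42.3% in WT CD.

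Interferon-inducible GTPases were among the genes furthest above WT HFD. *Irgm1* was 31.0 CPM (22.9 to 41.0) in WT HFD and 82.8 (71.3 to 95.7) in KO HFD, with 55.5 in WT CD, and was detected in 32 and 88 members of the HFD libraries. Its log2 ratio was 1.42 in members and 0.58 in the other FAPs, and it stayed between 1.28 and 1.59 under every alternative run. *Iigp1* went from 34.8 to 95.4 CPM, with 43.9 in WT CD and 103 and 130.3 in the other FAPs of the HFD libraries. With FAPs thinned to 3000 UMIs its log2 ratio was 0.11. *Irf1* and *Psmb8* of the interferon list were also at least 1.5-fold higher, but *Irgm1*, *Iigp1* and *Psmb8* reached 50 CPM in KO HFD only, so no count over the list is given. The summed level of its 20 genes, with most UMIs in *B2m*, was 1519, 1394 and 1745 CPM in WT CD, WT HFD and KO HFD members. In the other FAPs that sum was 1652, 1829 and 1914 CPM, higher than in members in each library.

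Of the chemokine genes, *Ccl7*, *Ccl2*, *Cxcl14* and *Cxcl1* were at least 1.5-fold higher in KO HFD members. *Ccl7* stood at 14.6 CPM (9.22 to 21.8) in WT HFD and 61.7 (51.8 to 72.9) in KO HFD, in 9 and 34 members, with 29.3 CPM in WT CD. *Ccl2* stood at 23.4 and 73.4 CPM, in 18 and 29 members, of which 1 KO HFD member held 43 UMIs. *Cxcl14*, a gene of set A whose level in members is bounded by the rule, stood at 36.1 and 90.5 CPM in 10 and 21 members. The log2 ratio of *Ccl2* was 1.65, but 0.12 when *Thbs2* was left out of the rule and 0.37 with thinning, and that of *Cxcl14* was 1.33, but 0.08 with thinning. *Ccl2* stood at 309 and 289 CPM in the other FAPs. *Cxcl1*, a neutrophil attractant, stood at 265 and 453 CPM. Of the 4, only *Cxcl1* reached 50 CPM in both libraries, so no count over the list is given. Of 20 immediate early genes and 15 heat shock chaperones tested, only *Myc* and *Dnajb1* were at least 1.5-fold higher, where 1.70% of all genes were. The list medians were 0.25 and 0.26 on the log2 scale, against -0.03 over all genes. The part of these 2 lists in the chemokine and interferon values was not tested.

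*Cited2*, a transcriptional co-regulator, stood at 68.3 CPM in WT HFD, 141 in KO HFD and 71.2 in WT CD members. *Irs2*, an insulin receptor substrate, stood at 59.5, 111 and 99.9 CPM in that order. *Plk2* stood at 32.9, 68.4 and 67.6 CPM. KO HFD was thus apart from both WT libraries for *Cited2* but near WT CD for *Irs2* and *Plk2*. *Thbs1* itself had a log2 ratio of 0.86 in members and -0.08 in the other FAPs. *Baiap2*, *Trib1*, *Alkal2* and *Ppp1r15b* were also named by the rule, and with thinning the log2 ratio of *Trib1* was 0.29, under 1.5-fold.

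**Figure D5:**
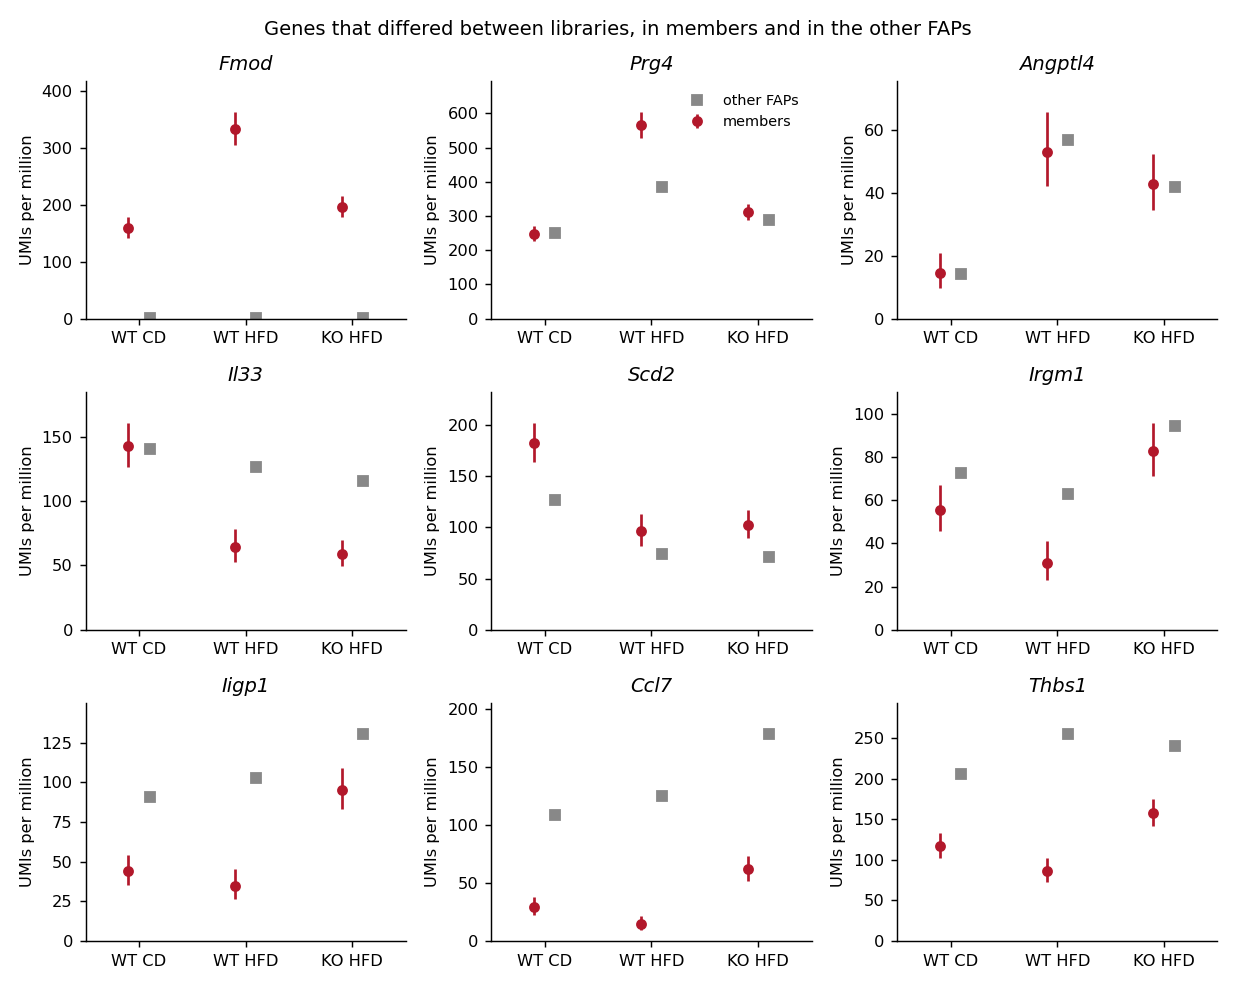
Level of 9 genes by library, in CPM, in members (red, with exact Poisson 95% intervals) and in the other FAPs (grey squares). Among members *Prg4* and the rule gene *Fmod* are highest in WT HFD, *Il33* is lower in members of both HFD libraries, and among members *Irgm1*, *Iigp1*, *Ccl7* and *Thbs1* are highest in KO HFD, where the other FAPs stand higher still for these 4 genes.

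*Eif3j1*, a subunit gene of translation initiation factor 3, was the lowest in KO HFD among genes found in many members. It stood at 96.8 CPM (82.1 to 113) in WT HFD and 22.1 (16.3 to 29.2) in KO HFD, with 91.4 in WT CD, and at 101 and 24.8 CPM in the other FAPs. It lies on chromosome 2, 3.9 Mb from *Thbs1*, and the deletion and sequence linked to it cannot be told apart. *Ide*, which encodes insulin-degrading enzyme, stood at 75.9 and 41.0 CPM, with 43.9 in WT CD, and at 57.6 and 32.3 CPM in the other FAPs.

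*Prg4* stood at 566 and 312 CPM, and *Vcan*, the large proteoglycan versican, at 132 and 72.9 CPM with 104 in WT CD. *C1qtnf3*, a secreted adipokine, stood at 77.8 and 39.2 CPM, against 16.2 and 10.9 in the other FAPs, with 32 of its 123 WT HFD UMIs in 1 member and a log2 ratio of -0.67 without the top members. *Igfbp5* stood at 323 and 113 CPM, but 1 WT HFD member held 292 of its 511 UMIs, and without members with tendon or mesothelial markers its log2 ratio was -0.28 in place of -1.52. *Dennd5b* likewise hung on 1 WT HFD member with 39 UMIs, and its log2 ratio was -0.01 without the top member of each library. *Slpi* stood at 244 and 2.70 CPM, in 3 and 2 members, but at 0 and 0.461 CPM without members with tendon or mesothelial markers. The log2 ratio of *Clu* was -0.71, and -0.54 without those members and -0.40 with thinning, both under 1.5-fold. *Ackr4* and *Nkap* were the other named genes. *Fmod*, a rule gene and so a description only, had a log2 ratio of -0.76. Without members with tendon or mesothelial markers it was -0.51, under 1.5-fold. With all members *Fmod* was the 1 of 10 small leucine-rich proteoglycan genes tested past 1.5-fold. Of 14 matricellular genes, *Thbs1* and *Ccn5* were higher and *Postn* lower. Over all genes tested, 1.70% were at least 1.5-fold higher in KO HFD members and 1.08% lower.

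Of 9 fibrillar and fibril-associated collagens tested in each comparison, 0 passed 1.5-fold in either direction, with medians of 0.21 for diet and -0.10 for genotype on the log2 scale. Of 14 TGF-β genes tested, 0 passed in either comparison, and of 15 mitochondrial respiratory genes 0 did. With at most 1.86% of all genes called in a direction, a count of 0 in a short list is no result about it. Of 11 network and other collagens, *Col4a2* alone passed for diet, at 107 CPM in WT CD and 168 in WT HFD, and *Col6a5* alone for genotype. Among 6 adipogenic genes tested *Cebpb* alone passed, at 511, 337 and 535 CPM in WT CD, WT HFD and KO HFD. *Col6a5* stood in WT HFD and KO HFD at 92.4 and 157 CPM, and at 143 and 295 CPM in the other FAPs.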

How the data were processed

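Single-cell libraries were made from male mouse costal diaphragm with 10x Genomics 3′ chemistry, and the deposited values are UMI counts per gene and barcode that the authors made with Cell Ranger 6.1.1 (per the submitters' processing notes) on the GRCm38 mouse genome, for 32285 genes. The files hold 4132, 3774 and 4369 barcodes with 34312860, 31967976 and 36478779 UMIs in WT CD, WT HFD and KO HFD, and no cell type labels were used. The strand setting of the counting is not given in the sources used here. Reads of a named gene that overlaps another on the other strand, among them *Eif3j1*, *Vcan*, *Irs2* and *Ccl2*, therefore cannot be told from those of its pair.

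FAPs were gated and scored as described, on log1p of counts per 10000 UMIs, standardized per gene over all FAPs of the 3 libraries. Counts were then summed by library over members and over the other FAPs and each sum was scaled by its own total. Members were compared with other FAPs over genes with at least 20 CPM in each library on either side, with a call at 2-fold in every library. Libraries were compared over genes with at least 50 CPM in 1 of them, with a call at 1.5-fold. Named were the 25 highest and 10 lowest genes by their weakest library, and per comparison the 12 largest differences each way with intervals apart, together with the rule genes, listed genes and the 5 genes most like the rule genes. The members, the 45 gene lists and the rules were chosen with earlier results of these data known.

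Python 3.11.15 with scanpy 1.11.5, scipy 1.17.1, pandas 2.3.3 and scikit-learn 1.9.0 were used. For k-means, 20 principal components of the 1972 variable genes left outside the rule were used, with 20 starts. Doublets were called by Scrublet (expected rate 0.06) and kept. TMM factors came from edgeR 4.0.16 in R 4.3.3 and served only as an alternative scaling. The steps were tested on simulated data. With 1 library per group no model was fitted. Intervals cover counting error only, not the spread between mice.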

Additional observations from a re-analysis of the deposited data

How the results depend on the processing

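No paired analysis was possible because each group is 1 library. Leaving out members with tendon or mesothelial markers, leaving out each gene's top member and the use of the k-means cluster were chosen after seeing the data. Of 959 values of named genes that alternatives gave, 0 changed direction. Alternatives that changed only the CPM minimum leave a gene's ratio as it was, so their values could not change direction. Most of the named genes were also picked as the furthest apart in these same counts, so the tally is no independent check of them. Without members that hold tendon or mesothelial markers *Slpi* could be given no fold in either comparison, at 0 CPM in WT CD and WT HFD and 0.461 in KO HFD. Of 574 values for the comparisons between libraries, 17 fell under 1.5-fold, 9 of them with FAPs thinned to 3000 UMIs. The 574 include the values with another CPM minimum, which could not fall. Of 94 shares and counts under alternatives, 66 stayed within the margin set for them and 28 did not.

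The share of FAPs in the class was 8.91%, 7.87% and 10.2% in WT CD, WT HFD and KO HFD when only members with 2 or more rule genes and a margin of 0.25 were kept. It was 17.6%, 13.8% and 15.5% for the k-means cluster that holds most members. Genes higher in members than in other FAPs numbered 160 with the CPM minimum divided by 2, 270 with a minimum of 5 summed UMIs only and 67 with the minimum multiplied by 2. Genes lower numbered 189 with 5 UMIs only. In WT HFD over WT CD, genes higher numbered 114 with the stricter members, 197 with thinning, 35 with TMM, 223 with the lower minimum, 1361 with 5 UMIs and 20 with the higher minimum, and genes lower numbered 92 with thinning, 116, 1144 and 17 with those minimums. In KO HFD over WT HFD, genes higher numbered 121 with thinning, 148, 1369 and 28 with those minimums, and genes lower 130, 127, 1071 and 11. Lower minimums admit genes with fewer UMIs, and thinning leaves fewer UMIs behind each level. The 2 mice of a library cannot be told apart, so no difference between libraries has an error that covers animals.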

Other observations

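The summed level of 7 macrophage markers was 13.1, 16.4 and 20.3 CPM in WT CD, WT HFD and KO HFD members, against 35.5, 37.9 and 14.4 in the other FAPs, with *Cd68* holding most UMIs. Of 6 B and T cell markers, *Cd79a* alone had any UMI in members. Of 7 mural cell markers, *Abcc9* had most UMIs, and their sum was 44.9, 44.9 and 43.2 CPM in members against 27.1, 21.1 and 32.0. The sum of 5 MuSC markers was 7.57, 20.2 and 6.75 CPM against 2.70, 1.23 and 1.22, with most UMIs in *Chodl* and *Myod1* at 0, as *Pax7* is by the gate. The part of such RNA in the results was not tested.

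Of 15 mitochondrial respiratory genes, 15 heat shock chaperones and 11 interferon response genes tested, 0 were 2-fold apart in each library in either direction, where 1.84% and 1.49% of all genes were. *Sox9*, a cartilage and progenitor transcription factor, was lower in members, at 5.05, 10.1 and 15.8 CPM against 43.7, 47.2 and 62.9. It passed the minimum of 20 CPM through the other FAPs only. The cartilage genes *Col2a1* and *Acan* had no UMI in members.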
